A study of Mus musculus with 2 samples.

Results

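Chromatin occupancy by TRα1, a thyroid hormone receptor, was described around 10 genes of lipolysis and of the lipid droplet surface: Pnpla2, Lipe, Mgll, Abhd5, G0s2, Plin1, Plin2, Plin5, Cidea and Cidec. A TR binding site (TRBS) is 1 peak of the deposited list, and its summit is the position with the highest pileup of precipitated fragments. Members were all TRBS with a summit within 100 kb of the transcription start site (TSS) of 1 of these genes. There were 37 such TRBS among 5107, and 26 of them lay within 30 kb. No TRBS lay within 100 kb of more than 1 of the 10 genes.

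The peaks came from 1 ChIP-seq library (chromatin immunoprecipitation followed by sequencing) set against 1 input library. Adult C57BL/6J males aged 8 to 12 weeks were the source of the brown adipose tissue. All mice carried TRα1 with a GS tag, and the tagged receptor was produced in brown adipocytes only, so occupancy in the other cells of the tissue was not measured. The number of animals behind the library is not given in the sources used here. The mice had eaten food with propylthiouracil, a drug that blocks thyroid hormone synthesis, for 2 weeks and then received thyroid hormone during 24 h. Hypothyroid mice without hormone were not analysed here, so nothing below separates occupancy with hormone from occupancy without it. There was no replicate, so no difference was tested, and all intervals are 95% intervals that cover counting error only. Those of fragments leave out the error of the input and the choice of each summit as the highest pileup. Fold values have no interval. The files hold peaks and no expression values, so neither the tissue label nor the transcription of any gene could be checked from them.

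Brown adipocytes store triglycerides in many small lipid droplets and break them down when the sympathetic system is active. The fatty acids released are fuel for the mitochondria and activate the uncoupling protein that turns respiration into heat. Lipolysis runs in steps. Pnpla2 (adipose triglyceride lipase) removes the first fatty acid, Lipe (hormone-sensitive lipase) acts on the diglyceride and Mgll (monoglyceride lipase) on the monoglyceride. Abhd5 is the coactivator of Pnpla2 and G0s2 is its inhibitor. Perilipins coat the droplet and control the access of lipases, and the CIDE proteins Cidea and Cidec promote the exchange and fusion of droplets. Thyroid hormone receptors are ligand-dependent transcription factors that bind DNA mainly as heterodimers with RXR. Their best known element is the DR4, a direct repeat of AGGTCA with a spacer of 4 bases.

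The sequences of 4 TRBS with a DR4 near the summit are shown first, so that the element can be seen in place. They were chosen for the DR4, and some TRBS without one had more fragments than the fourth. Each is the 201 bp around a summit, on the forward strand of GRCm38 from RefSeq. Capitals mark the 12 half-site bases of a DR4, searched on both strands with at most 2 mismatches. The first lies in intron 1 of Pnpla2 at chr7:141456194-141456394, and its element has 1 mismatch. The second lies in an intron of Lamb3 upstream of G0s2 at chr1:193323922-193324122, and its element has no mismatch. The third and the fourth lie upstream of Plin2 at chr4:86695102-86695302 and chr4:86686126-86686326. They have 2 mismatches each, and the element of the third reads on the reverse strand.
Pnpla2, 1096 bp downstream: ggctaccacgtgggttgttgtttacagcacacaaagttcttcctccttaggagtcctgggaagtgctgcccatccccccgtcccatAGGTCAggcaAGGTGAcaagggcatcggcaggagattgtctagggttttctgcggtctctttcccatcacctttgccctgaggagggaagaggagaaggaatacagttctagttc
G0s2, 50805 bp upstream: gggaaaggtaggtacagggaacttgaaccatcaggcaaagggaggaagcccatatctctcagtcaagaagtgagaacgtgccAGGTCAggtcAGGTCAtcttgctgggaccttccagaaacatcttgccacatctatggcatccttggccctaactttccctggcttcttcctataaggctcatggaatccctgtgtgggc
Plin2, 25142 bp upstream: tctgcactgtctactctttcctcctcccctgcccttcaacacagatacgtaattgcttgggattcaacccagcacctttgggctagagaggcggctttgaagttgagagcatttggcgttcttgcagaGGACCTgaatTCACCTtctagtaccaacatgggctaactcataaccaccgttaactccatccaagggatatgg
Plin2, 16166 bp upstream: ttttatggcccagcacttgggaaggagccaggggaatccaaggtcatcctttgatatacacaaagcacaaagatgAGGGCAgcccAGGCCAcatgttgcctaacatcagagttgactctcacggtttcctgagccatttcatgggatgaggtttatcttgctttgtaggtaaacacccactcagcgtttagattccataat

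A TRBS at a promoter without a DR4 is shown for contrast. It is the TRBS at the Plin1 TSS, of which the 136 bp upstream of the TSS (chr7:79732904-79733039) are printed on the reverse strand, the strand of the gene. There are no capitals, since no DR4 with at most 2 mismatches was found there.
Plin1 promoter: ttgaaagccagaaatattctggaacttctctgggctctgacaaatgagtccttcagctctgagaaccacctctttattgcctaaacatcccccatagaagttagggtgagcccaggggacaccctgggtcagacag

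Of the 10 genes, 7 had at least 1 TRBS within 30 kb of the TSS, while 16.7% of the 21938 protein-coding genes did. Each of these 7 genes had at least 3 TRBS within 30 kb, while 1.75% of protein-coding genes did. The study's methods dropped peaks with a MACS score under 60, where the score is 10 times the −log10 of the q-value. Once TRBS under this score were left out, 3 genes (Pnpla2, Lipe and Plin2) had at least 3, against 1.26% of protein-coding genes. Across the 3659 protein-coding genes with any TRBS within 30 kb, the median was 1 TRBS and the third quartile was 2. The genes had been chosen as a group with earlier results of these data known, and no test was made of these counts. Closer to the TSS, 6 of the 10 genes had a TRBS within 10 kb (8.09% of protein-coding genes), and 3 had one within 1 kb (3.02%). These 3 were Pnpla2, Plin1 and Cidea. Within 100 kb, 9 of the 10 genes had a TRBS (38.3%), and the exception was Abhd5.

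**Figure D1:**
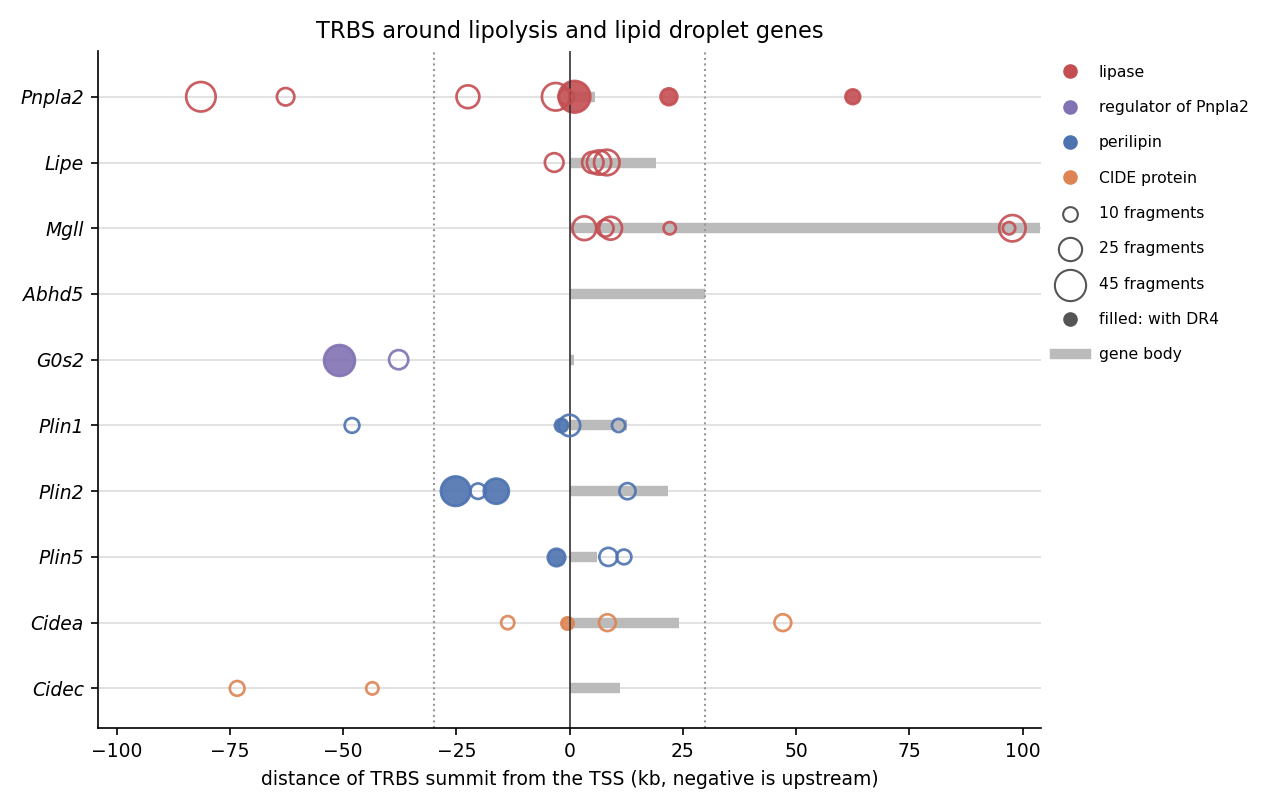
TRBS around the 10 genes. The x axis gives the distance of the summit from the TSS in kb on the strand of the gene, circle area is proportional to the ChIP fragments at the summit, filled circles hold a DR4, grey bars are gene bodies and dotted lines mark 30 kb. The 3 lipase genes had 13 of the 26 TRBS within 30 kb, and Abhd5 had none within 100 kb.

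Grouped by the role of the gene, TRBS within 30 kb were most numerous at the lipases and had their highest median pileup there. The 3 lipase genes had 13 TRBS within 30 kb with a median of 24 ChIP fragments at the summit. The 3 perilipin genes had 10 with a median of 13 fragments, Cidea had 3 with a median of 8, and Abhd5, G0s2 and Cidec had none. Of the 13 TRBS at lipase genes, 9 had a fold enrichment above the median of all TRBS, compared with 4 of the 10 at perilipin genes and 0 of the 3 at Cidea. A fold here divides the pileup in the ChIP library by the background of the peak calling against the input, each raised by 1. A score of at least 60 was reached by 11 of 13 TRBS at lipase genes, 6 of 10 at perilipin genes and 1 of 3 at Cidea, against 82.4% of all TRBS, so by this count the lipase genes were close to the whole list.

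Pnpla2 (chr7:141455198-141460743, forward strand), the enzyme of the first step, had 5 TRBS within 30 kb, the highest number among the 10 genes. The strongest (chr7:141455876-141456613) had its summit 1096 bp downstream of the TSS in intron 1 of 8, with 46 ChIP fragments (33.7 to 61.4) over a background of 0.605. Its fold was 29.3 and its score 653, and 93.5% of all TRBS had a lower fold. It also had the most fragments and the highest fold of all 26 TRBS within 30 kb. Its interval overlapped those of others, such as the TRBS 25142 bp upstream of Plin2 (28.6 to 54.5).

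Upstream of Pnpla2, the TRBS at 3058 bp (chr7:141451852-141452420, intergenic) had 35 fragments (24.4 to 48.7), a fold of 19.9 and a score of 410. The TRBS at 725 bp (chr7:141454264-141454587), in the promoter (from 1000 bp before to 100 bp after a TSS), had 11 fragments (5.49 to 19.7), a fold of 6.27 and a score of 61. The promoter TRBS was therefore the weakest of this cluster of 3, and its interval lay below those of both neighbours. The summits of the cluster were 2333 and 1821 bp apart. The intervals of the intronic TRBS and of the one at 3058 bp overlapped.

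The remaining TRBS within 30 kb of Pnpla2 lay at other genes. The TRBS 22431 bp upstream (chr7:141432497-141432972) had 24 fragments (15.4 to 35.7) and a fold of 17.5, and it lay in a noncoding exon of Slc25a22 with Cend1 as the nearest protein-coding TSS. The TRBS 21933 bp downstream (chr7:141476897-141477224) had 13 fragments (6.92 to 22.2) and a fold of 8.54, and it lay in an intron of Tspan4. Pnpla2 sits among 8 other protein-coding TSS within 30 kb, and for 3 of its 5 TRBS it was the nearest. Of the 3 TRBS between 30 and 100 kb, the strongest was 81371 bp upstream with 40 fragments (28.6 to 54.5) and a fold of 25.5, nearest to Taldo1. The other two had 14 and 10 fragments.

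Lipe (chr7:25379527-25398710, reverse strand), which cleaves diglycerides and is activated by protein kinase A, had 4 TRBS within 30 kb, and Lipe had the nearest protein-coding TSS of each. A row of 3 lay in intron 1 of 9 of the principal transcript. The TRBS 5133 bp downstream (chr7:25393371-25393865) had 21 fragments (13.0 to 32.1) and a fold of 12.6, the one at 6512 bp (chr7:25391768-25392429) had 27 (17.8 to 39.3) and a fold of 15.1, and the one at 8219 bp (chr7:25390162-25390902) had 30 (20.2 to 42.8) and a fold of 16.9. The 3 intervals overlapped, so no order among them could be read at this depth. Their summits were 1379 and 1707 bp apart.

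Lipe has several annotated transcript starts, and distances above are from the most upstream one. The summit at 8219 bp lay 14 bp from the start of another annotated Lipe transcript, the summit at 6512 bp lay 1721 bp from it, and the summit at 5133 bp lay 2802 bp from a start of its own. The TRBS at 8219 bp overlapped 1 of the 2 RefSeq promoter windows of Lipe (chr7:25390063-25390362), with the summit outside the window. The fourth TRBS, 3384 bp upstream in an intron of Cxcl17 (chr7:25401905-25402380), had 16 fragments (9.15 to 26.0) and a fold of 10.6. No TRBS of Lipe held a DR4, and the upstream one held a DR1, a direct repeat with a spacer of 1 base, with 1 mismatch.

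Mgll (chr6:88724412-88828360, forward strand), which completes lipolysis by releasing glycerol and also degrades an endocannabinoid, had 4 TRBS within 30 kb, all in intron 2 of 7. The strongest by fragments was 3266 bp downstream (chr6:88727117-88727846) with 26 fragments (17.0 to 38.1) and a fold of 12.2. The one at 9058 bp (chr6:88733274-88733707) had 24 fragments (15.4 to 35.7) and a fold of 13.1. These 2 could not be told apart by their intervals.

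Between and beyond them were weak TRBS of Mgll. At 7861 bp (chr6:88732189-88732474) there were 13 fragments (6.92 to 22.2) over the highest background of all 26 TRBS, 1.83, which gave a fold of 4.95. At 22115 bp (chr6:88746297-88746603) there were 7 fragments (2.81 to 14.4) and a fold of 4.78. Both had scores under 60, at 47 and 31. Far inside the gene, in intron 6 of 7 and 97759 bp from the TSS, was a TRBS with 32 fragments (21.9 to 45.2) and a fold of 17.2. These were the highest values of Mgll within 100 kb, but the interval overlapped those at 3266 and 9058 bp. This TRBS lay 959 bp from the start of another annotated Mgll transcript. With 1 TSS per gene, its nearest protein-coding TSS was that of Abtb1, 19813 bp away. A weak neighbour at 97015 bp had 7 fragments. None of the 6 TRBS held a DR4.

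The 2 regulators of Pnpla2 had no TRBS within 30 kb. For Abhd5 (chr9:122351608-122381524, forward strand), which activates Pnpla2 once it is released from perilipin 1, the nearest TRBS lay beyond 100 kb. For G0s2 (chr1:193272161-193273217, reverse strand), the inhibitor, there were 2 TRBS, both upstream in introns of Lamb3. The TRBS at 50805 bp (chr1:193323476-193324579) had 44 fragments (32.0 to 59.1), a fold of 28.0 and a score of 614, and 92.6% of all TRBS had a lower fold. It was the only one of the 37 with a DR4 without mismatch, an element that 44 of the 5107 TRBS (0.862%) held. Its nearest protein-coding TSS was that of Camk1g and not G0s2. The TRBS at 37719 bp (chr1:193310253-193311078) had 17 fragments (9.90 to 27.2) and a fold of 12.0, and G0s2 had the nearest protein-coding TSS.

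Plin1 (chr7:79720218-79732903, reverse strand), the perilipin of adipocytes that gates lipase access, had the TRBS closest to a TSS among the 37. Its summit was 8 bp upstream of the TSS (chr7:79732719-79733039), with 21 fragments (13.0 to 32.1), a fold of 13.7 and a score of 221. The other two TRBS within 30 kb were weak. The one at 1969 bp upstream (chr7:79734699-79735137) had 8 fragments (3.45 to 15.8) and a score of 51, and the one 10818 bp downstream in intron 8 of 8 (chr7:79721832-79722378) also had 8 fragments and a score of 31. Their fold values were 5.98 and 4.70, and the nearest protein-coding TSS of the downstream one was that of Kif7. The intervals of both overlapped that of the promoter TRBS, between 13.0 and 15.8 fragments. Between 30 and 100 kb, 1 TRBS lay 48016 bp upstream in an intron of Wdr93, nearest to Mesp1, with 10 fragments and a score of 30.

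Plin2 (chr4:86648386-86670060, reverse strand), the droplet coat protein found in most cell types, had 4 TRBS within 30 kb, and none lay within 10 kb of the TSS. Of these, 3 were upstream in intergenic sequence with no other protein-coding TSS within 30 kb of Plin2. The strongest, 25142 bp upstream (chr4:86694946-86695461), had 40 fragments (28.6 to 54.5), a fold of 23.1 and a score of 500, the second highest fold within 30 kb. Repeats made up 54.7% of this peak, the highest share among the 37, and uniqueness of alignment there was not tested.

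The TRBS of Plin2 at 16166 bp upstream (chr4:86685978-86686413) had 29 fragments (19.4 to 41.6) and a fold of 11.9. Between these lay a weaker TRBS at 20196 bp (chr4:86690086-86690478) with 11 fragments (5.49 to 19.7), a fold of 5.98 and a score of 57. Its interval lay below that of the strongest TRBS and overlapped that of the TRBS at 16166 bp only at its edge. Inside the gene, 12789 bp downstream in a coding exon (chr4:86657017-86657424), a TRBS had 12 fragments (6.20 to 21.0) and a fold of 7.40.

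Plin5 (chr17:56111601-56117596, reverse strand), the perilipin of oxidative tissues that links droplets to mitochondria, had 3 TRBS within 30 kb, but none had Plin5 as the nearest protein-coding TSS. The TRBS 3008 bp upstream (chr17:56119769-56120720) lay in a coding exon of Lrg1, with 14 fragments (7.65 to 23.5) and a fold of 7.84. The other two lay in introns of Plin4, the next gene downstream, which encodes another perilipin. The TRBS at 8574 bp (chr17:56108673-56109970) had 15 fragments (8.40 to 24.7) and a fold of 9.95, and it lay 781 bp inside Plin4. The TRBS at 12023 bp (chr17:56105201-56105712) had 10 fragments (4.80 to 18.4) and a fold of 5.75. All 3 intervals overlapped.

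Cidea (chr18:67343604-67367785, forward strand), a droplet protein highly expressed in brown fat and often used as a marker of thermogenic adipocytes, had 3 TRBS within 30 kb, all nearest to Cidea and all weak. The promoter TRBS, 597 bp upstream, had 7 fragments (2.81 to 14.4), a fold of 5.20 and a score of 37. The TRBS 13642 bp upstream had 8 fragments (3.45 to 15.8), a fold of 5.67 and a score of 46. The TRBS 8351 bp downstream, in intron 1 of 4, had 13 fragments (6.92 to 22.2), a fold of 6.69 and a score of 74. Only the intronic TRBS passed a score of 60. A TRBS 47082 bp downstream, with 13 fragments and a fold of 5.55, lay 31 bp from the TSS of Tubb6.

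Cidec (chr6:113424634-113435760, reverse strand), the relative of Cidea that drives the growth of large droplets in white fat, had no TRBS within 30 kb. Of its 2 TRBS within 100 kb, the one 73367 bp upstream had 10 fragments (4.80 to 18.4) and a fold of 7.35, and the nearest protein-coding TSS was that of Prrt3. The other, 43532 bp upstream, had 7 fragments (2.81 to 14.4) and lay in a coding exon of Il17rc, and the intervals overlapped.

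**Figure D2:**
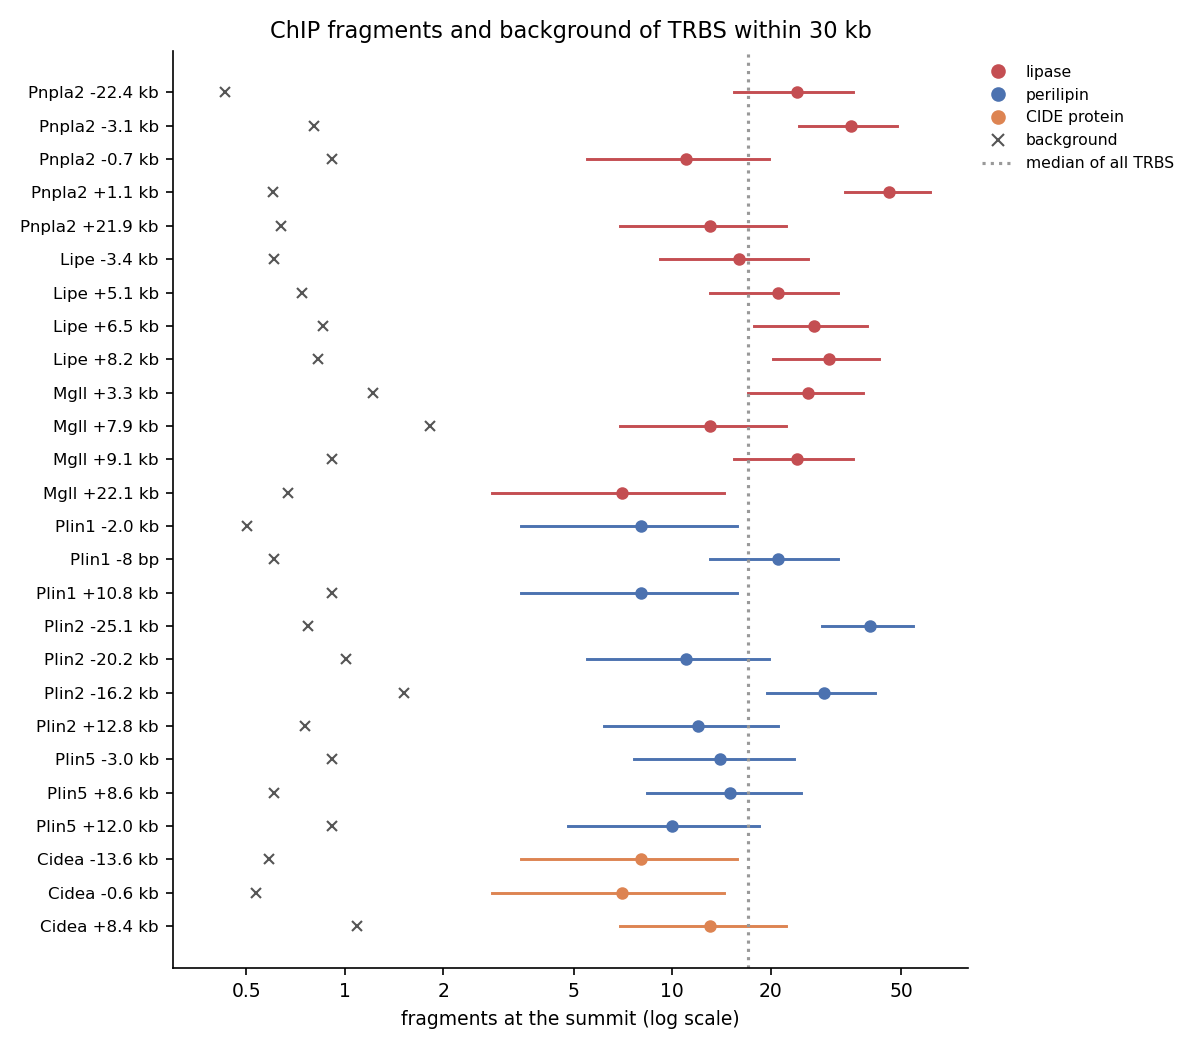
ChIP fragments at the summits of the 26 TRBS within 30 kb. The x axis is the number of fragments on a log scale, and points are fragments with 95% Poisson intervals. Crosses are the background recovered from fold and p-value, and the dotted line is the median of all TRBS (17 fragments). Fragments ran from 7 to 46 and background from 0.430 to 1.83. The value 0.430 was also the lowest over all TRBS and recurred at other peaks, so it need not be a local input count.

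Within the whole list, the 26 TRBS lay near the middle in strength. Their median was 14.5 fragments, against 17 over the 5090 TRBS with recovered fragments. Their median fold was 9.24, against 9.83 over all 5107. At a score of at least 60 the order of the fragment medians turned, with 22.5 for the 18 TRBS left and 20.0 for the 4210 of the whole list. Of the 26, 13 had a fold above the median of all TRBS. The share with a score under 60 was 30.8% (8 of 26), against 17.6% of all TRBS. Only 1 of the 26, the intronic TRBS of Pnpla2, was in the top 10% of all TRBS by fold. The TRBS of G0s2 at 50805 bp and that of Pnpla2 at 81371 bp were in the top 10% too, and both lay outside 30 kb.

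**Figure D3:**
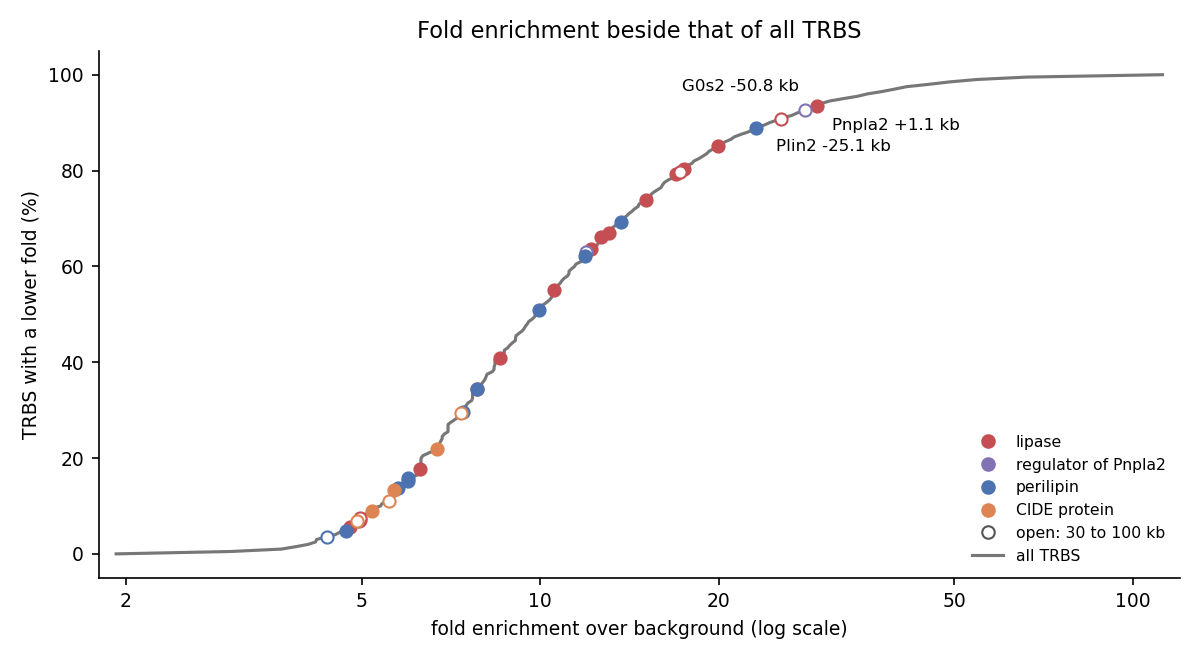
Fold enrichment of the 37 TRBS beside the distribution over all TRBS. The x axis is the fold on a log scale and the y axis is the percent of all TRBS with a lower fold. Filled points lie within 30 kb of the TSS and open points between 30 and 100 kb. The TRBS of Pnpla2 at 1096 bp stood highest with a fold of 29.3, and the 3 TRBS within 30 kb of Cidea lay between 5.20 and 6.69.

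The promoter share of the 26 TRBS was 11.5%, against 7.24% of all TRBS and 12.7% of the TRBS within 30 kb of any protein-coding TSS. Of the 26, 14 were in introns (53.8%, against 47.2% of all TRBS), 6 were intergenic, 3 were in promoters, 2 in coding exons and 1 in a noncoding exon. A total of 14 lay downstream and 12 upstream of the TSS, and 11 lay inside the body of the gene they were assigned to. The median GC content was 54.5%, against 51.1% over all TRBS and 52.7% over those within 30 kb of any protein-coding TSS. The assigned gene had the nearest protein-coding TSS for 20 of the 26, but for only 1 of the 11 between 30 and 100 kb.

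A DR4 was found in 7 of the 26 TRBS (26.9%, Wilson interval 13.7 to 46.1), against 32.0% of all TRBS and 5.43% of the flanks of all TRBS, which are windows of the same width 2 kb away. It was in 3 of 45 flanks of the 26 (6.67%, 2.29 to 17.9). These elements belonged to Pnpla2 and Plin2, with 2 TRBS each, and to Plin1, Plin5 and Cidea, with 1 each. Lipe and Mgll, with 8 TRBS between them, had none. TRBS with a DR4 had a median of 14 fragments (n = 7, range 7 to 46), and those without had a median of 15 (n = 19, range 7 to 35), and the ranges overlapped. Over all TRBS the medians were 20 with a DR4 and 15 without.

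The position of the element differed between TRBS. Its centre was 6.5 bp from the summit in the intron of Pnpla2, 10.5 bp in the TRBS of G0s2, and 17.5 and 35.5 bp in the 2 TRBS upstream of Plin2. In contrast, it was 241.5 bp from the summit in the TRBS 1969 bp upstream of Plin1 and 617.5 bp in the TRBS upstream of Plin5. Within 50 bp of the summit lay 5 of the 7 elements within 30 kb, against 67.2% of 2063 elements over all TRBS.

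Further elements are printed on the strand on which they read, with half-sites in capitals, so that the departures from AGGTCA can be seen. The first 4 are DR4 elements with 2 mismatches each, at chr7:141477159-141477174, chr7:79735106-79735121 (reverse), chr17:56119979-56119994 (reverse) and chr7:141517726-141517741. The last 3 are DR1 elements, shown for 3 TRBS without a DR4, at chr7:25401911-25401923 with 1 mismatch, chr6:88733424-88733436 (reverse) with 2 mismatches and chr4:86657037-86657049 (reverse) with 1 mismatch.
Pnpla2, 21933 bp downstream: GGGTCActtcAGGGCA
Plin1, 1969 bp upstream: AGGGCAgcacAGGGCA
Plin5, 3008 bp upstream: AGGCCAtgaaGGGTCA
Pnpla2, 62526 bp downstream: AGTTCAaggtAGGTTA
Lipe, 3384 bp upstream: ATGTCAcAGGTCA
Mgll, 9058 bp downstream: GGGTCAaGGGTCA
Plin2, 12789 bp downstream: AGGTCAaAGCTCA

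Other motifs were searched in the same way. A DR1 with at most 2 mismatches, the repeat that PPARγ with RXR is known to bind, was in 7 of the 26 TRBS (26.9%, 13.7 to 46.1), against 14.9% of all TRBS (13.9 to 15.9) and 7.92% of all flanks. It was in 6 of 45 flanks of these TRBS (13.3%, 6.26 to 26.2). Only the intronic TRBS of Pnpla2 held both a DR4 and a DR1 among the 26, and 13 held neither. The C/EBP palindrome, TTGC followed by GCAA with at most 1 mismatch, was in 8 of 26 (30.8%, 16.5 to 50.0), against 12.0% of all TRBS (11.1 to 12.9). It was in 3 of 45 flanks of these TRBS (6.67%, 2.29 to 17.9). The 8 included the promoter TRBS of Plin1 and the TRBS of Lipe at 8219 bp, with matches centred 80.5 and 295.5 bp from the summit. Over the 8, this distance ran from 25.5 bp (Cidea, 8351 bp downstream) to 311.5 bp (Plin5, 8574 bp downstream). The match of Plin1 lay downstream of the TSS, outside the printed promoter stretch. The single half-site AGGTCA without mismatch was in 10 of 26 (38.5%, 22.4 to 57.5), against 56.0% of all TRBS and 28.9% of the flanks of the 26. The EBF palindrome, TCCC and GGGA around 2 bases of any kind, was in 0 of 26 (upper bound 12.9%), against 4.54% of all TRBS. Such matches describe letters in the peak and were not tested as binding sites.

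**Figure D4:**
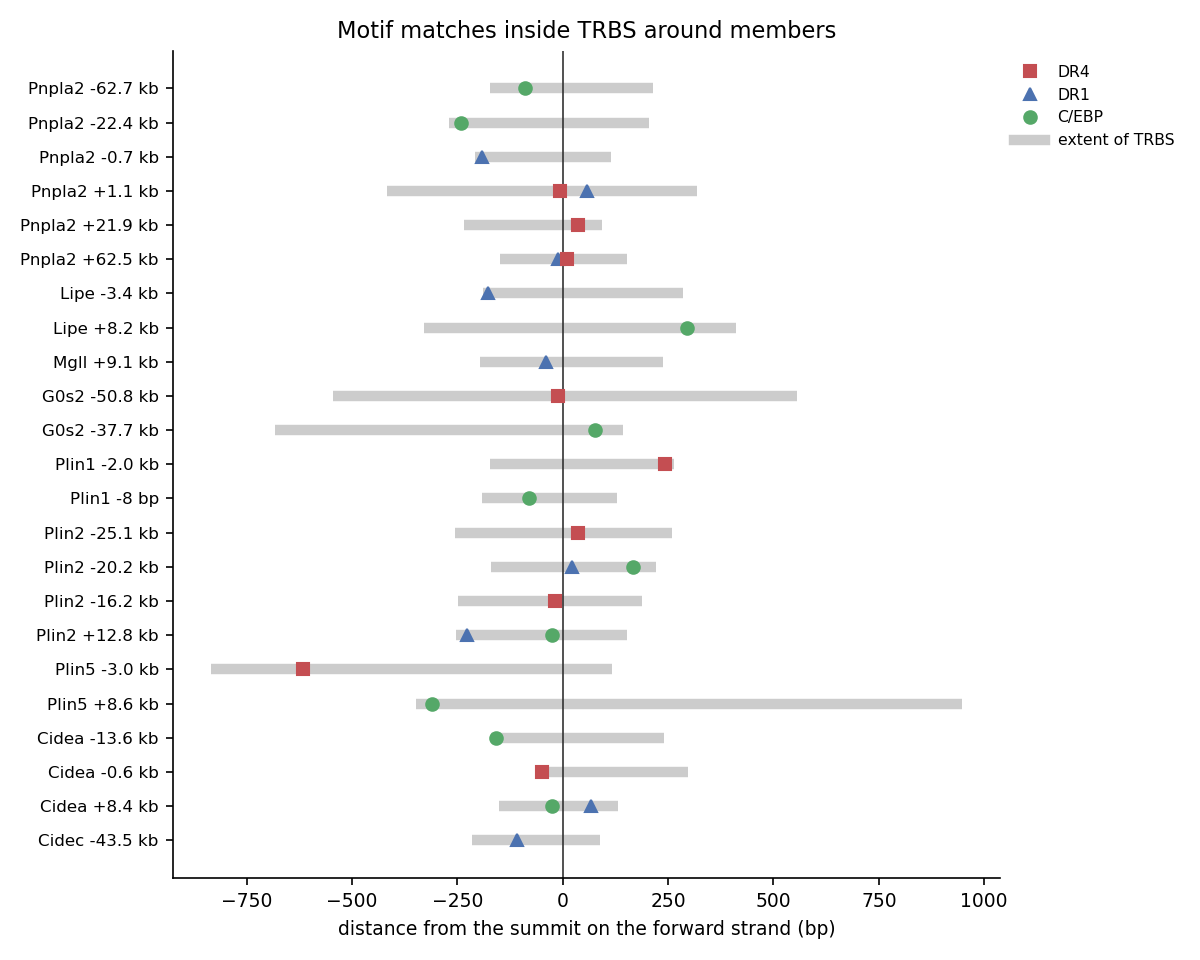
Positions of motif matches in the TRBS around the 10 genes that held any. The x axis is the distance from the summit in bp on the forward strand, grey bars are the extents of the TRBS, squares are DR4, triangles DR1 and circles C/EBP matches. The DR4 matches of Pnpla2 at 1096 bp and of G0s2 sat 6.5 and 10.5 bp from the summit, and that of Plin5 sat 617.5 bp away.

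As over the genome, most DR4 elements around these genes lay outside TRBS. The windows of 30 kb on each side of the 10 TSS held 91 elements with at most 2 mismatches, and 7 of them (7.69%) were inside a TRBS, against 0.711% of 290078 such elements over all chromosomes. Of the 10 windows, 7 held a TRBS, and the shares were not tested against each other. The windows were centred on TSS and the genome count was not, so the shares are not of like regions. Of the 4 elements with at most 1 mismatch, 1 was inside a TRBS, that of Pnpla2. The other 3 lay around Lipe, Cidea and Cidec. The RefSeq table of promoters, with 250 bases before and 50 after each start, held 13 promoters of 9 of the 10 genes. The summit of a TRBS lay inside 1 of the 13, that of Plin1. A DR4 was found in a promoter of Plin5, where no TRBS was called, and in 3.02% of all promoters of the table.

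A further 20 genes of lipolysis and the lipid droplet were followed as a list, and 8 of them had a TRBS within 30 kb (16.7% of protein-coding genes), 3 of them with at least 3 (1.75%). Without TRBS of a score under 60, 1 gene, Pnpla3, had at least 3 (1.26%). The strongest TRBS within 30 kb of any of the 10 or the 20 genes was at Plin3, the perilipin of small and nascent droplets. Its summit was 142 bp upstream of the TSS, with 95 fragments, a fold of 59.7, a score of 1655 and a DR4. Plin4 had 3 TRBS, the same 3 as Plin5, with the strongest 781 bp downstream of its TSS. Pnpla3, a relative of Pnpla2 with lipase and acyltransferase activity, had 5 TRBS, of which the strongest was 22905 bp upstream with 58 fragments and lay nearer to Pnpla5.

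The remaining genes of the list had 12 to 20 fragments at their strongest TRBS within 30 kb. Cav1, the caveolin of the adipocyte plasma membrane, had 3 TRBS, the strongest 8144 bp downstream with 16 fragments. Abhd6, a monoacylglycerol lipase, had 1 at 13575 bp downstream with 20 fragments. Fitm1, which takes part in droplet formation, had 2, the strongest 15320 bp upstream with 15 fragments and nearer to A730061H03Rik. Hilpda, an inhibitor of Pnpla2 induced by hypoxia, had 1 at 10522 bp upstream with 12 fragments. Ddhd2, a lipase, had 1 at 543 bp downstream with 12 fragments. The other 12 genes, Cideb, Fitm2, Bscl2, Pnpla8, Ldah, Aup1, Lipa, Rab18, Hsd17b11, Faf2, Cavin1 and Hsd17b13, had none within 30 kb.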

How the data were processed

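Peaks of 1 ChIP library against 1 input library were used. The authors aligned reads to GRCm38 (mm10) with Bowtie2 2.3.2.2 and called peaks with MACS2 2.1.1.20160309.6, per the submitters' processing notes. The deposited score of each peak is 10 times its −log10 q-value, rounded down. The deposited fold is a ratio of pileup to background, each raised by 1, and the deposited −log10 p-value and q-value come from the authors' Poisson test. These values were used only to describe peaks. The deposited list was not filtered at a score of 60, since 897 of 5107 peaks were below it, and all peaks were kept. The deposited summit offset, in bp (another unit), gave the summit position.

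Fragments and background at each summit were recovered from fold and p-value. At a tolerance of 0.0005 on the −log10 p-value, whole fragments came out for 99.7% of peaks, and all 37 members had 1 solution. Across the 5090 peaks with whole fragments this depth ran from 5 to 4966 fragments, with a median of 17. Fragment medians over all TRBS leave out the other peaks. Library totals were not used here. Recovery and motif search were tested on simulated data. The TSS is the 5′ end of the gene in GENCODE for GRCm38 (21938 protein-coding genes of 55413), and introns are those of the principal transcript. Fragment intervals are exact Poisson, and shares have Wilson intervals. Fragments carried no molecular identifiers, so they need not be independent molecules. All 10 members were named, with every TRBS within 30 kb, the strongest of those at 30 to 100 kb, and every gene of the further list with a TRBS within 30 kb. The members and lists were chosen with earlier results of these data known. Alternatives were a score of at least 60, a fold of at least 5, other distance rules and other mismatch limits. Python 3.11.15, pandas 2.3.3, SciPy 1.17.1 and samtools 1.23.1 were used.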

Additional observations from a re-analysis of the deposited data

How the results depend on the processing

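Of 36 alternative values, 29 stayed close to the reported one, within 1.5 times for a count or median or within its 95% interval for a share, and 7 moved. Genes of the further list with a TRBS numbered 4 at a limit of 10 kb. TRBS within 100 kb of the 10 genes numbered 24 at a score of at least 60. The share of TRBS within 30 kb with a DR4 was 3.85% with at most 1 mismatch and 65.4% with at most 3, against 7.23% and 72.5% of all TRBS. Genes with at least 3 TRBS within 30 kb numbered 3 at a score of at least 60 and 5 at a fold of at least 5, in place of 7, and genes of the further list with at least 3 numbered 1 in place of 3 at that score, as alternatives chosen after seeing the data. The median of 14.5 fragments rose to 22.5 at a score of at least 60, and over all TRBS it rose from 17 to 20.0. Genes with a TRBS within 30 kb again numbered 7 at a score of at least 60, at a fold of at least 5, with any transcript start and by peak edges. With genes of all types as competitors, 15 in place of 21 TRBS were nearest to 1 of the 10 genes. No paired analysis was possible because there was 1 library of each kind. A TRBS with 7 fragments had an interval of 2.81 to 14.4, so weak TRBS cannot be ranked at this depth. Distance does not show which gene a TRBS acts on, and a second ChIP library was not analysed here.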
